A study of Homo sapiens with 15 samples.

Results

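C/D box small nucleolar RNAs (snoRNAs) were followed across 5 groups of A549 cells, an established human lung adenocarcinoma line, on whole-transcript arrays. Their genes were taken as all symbols beginning with SNORD in the array's probe table, which gave 115 genes with a probe set of their own among 18377 genes in all. Of these, 84 exceeded their array's 25th percentile of signal on at least 3 arrays and were tested among 16005 genes; 31 did not. Another 49 probe sets listed a SNORD symbol together with other genes and were not used here.

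The groups held 3 arrays each, 15 in all. BB2-125, BB2-162 and BB2-282 are oligooxopiperazines known by code names, each given at 10 µM to hypoxic cells. The hypoxic vehicle cells and the normoxic vehicle cells received no compound, and every culture carried 0.1% DMSO. Hypoxia was made with a gas-pack pouch after 6 h and lasted 42 h. The series asks how such compounds alter signalling by hypoxia-inducible factor. No culture with compound in normoxia was analysed here, so an effect on the hypoxic response and a general effect of a compound cannot be told apart. All data come from 1 cell line, and the titles call the 3 arrays of a group biological replicates without saying whether the cultures were started separately, so each p-value is set by the spread among these samples, which may be technical.

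C/D box snoRNAs are short nucleolar RNAs that pair with ribosomal RNA and guide ribose methylation by fibrillarin, which they carry together with NOP56, NOP58 and SNU13. In human cells most of them are cut out of introns of other genes: the host transcript is spliced, the intron lariat is opened, and exonucleases trim it back to the ends that the proteins protect. Some hosts encode ribosomal proteins or translation factors, while others, such as GAS5 and the SNHG genes, make spliced RNAs with no known protein of their own. An array probe set within a snoRNA gene cannot separate the mature snoRNA from unspliced host RNA or from a free intron. In bulk RNA, a different level per cell and a different number of cells making the RNA cannot be told apart either.

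Host genes start transcription once for all the snoRNAs in their introns, so snoRNAs of one host share a promoter. The 4 windows that follow are shown because their hosts carry snoRNAs that rose with a compound, GAS5, HSPA8 and SNHG5 together with others that did not pass the test. Each runs from 50 bases before to 50 bases from the RefSeq start of the gene on build GRCh38.p14, 5′ to 3′ on the minus strand, and the capitals mark the longest unbroken run of C and T. All 4 genes lie on the minus strand, at chr1:173868996-173869095 for GAS5, chr11:123062087-123062186 for HSPA8, chr18:49492416-49492515 for RPL17 and chr6:85678684-85678783 for SNHG5.
GAS5: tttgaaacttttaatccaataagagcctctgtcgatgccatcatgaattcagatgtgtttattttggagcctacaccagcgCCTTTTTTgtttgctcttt
HSPA8: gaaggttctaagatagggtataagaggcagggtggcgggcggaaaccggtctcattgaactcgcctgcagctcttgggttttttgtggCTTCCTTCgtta
RPL17: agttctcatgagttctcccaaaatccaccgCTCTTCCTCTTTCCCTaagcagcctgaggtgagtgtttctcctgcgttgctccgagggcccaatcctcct
SNHG5: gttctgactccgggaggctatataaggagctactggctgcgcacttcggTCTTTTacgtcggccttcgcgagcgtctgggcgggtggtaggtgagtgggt

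Transcripts of ribosomal proteins and of many snoRNA hosts are known to begin with a run of pyrimidines. The runs marked here are the longest anywhere in a window and need not lie at the start. The RPL17 run lies wholly before the RefSeq start and the GAS5 and HSPA8 runs lie after it, whereas the SNHG5 run spans it. The longest run was 16 bases in the RPL17 window, a length reached in 2.96% of 35116 windows of the same size. It was 8 bases in the GAS5 and HSPA8 windows, as in 35.9% of all windows, and 6 bases in the SNHG5 window, as in 66.7%. The motif CTTTT occurred 2 times in the GAS5 window and 1 time in the SNHG5 window on the strand shown, against 10.9% of all windows holding it on that strand and 19.8% on either strand. The HSPA8 and RPL17 windows held 0 copies on either strand.

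Signal of the 84 snoRNA genes covered nearly the whole range of the array. Their mean log2 intensity over the 15 arrays ran from 4.38 for SNORD116-12 to 13.56 for SNORD33, which lies in RPL13A and has been linked to lipid and oxidative stress, with a median of 8.60. Those nearest the filter were SNORD102 with 3 arrays above it, and SNORD116-12 and SNORD1A with 4 each; just outside stood SNORD113-3 and SNORD7 with 1 each. SNORD102 ranged from 3.48 to 5.99 across arrays, against 3.13 to 4.72 for SNORD113-3 and 3.99 to 4.77 for SNORD7. The genes left out included all members of the SNORD115 cluster on the array. The 6 epithelial markers were above the filter on all 15 arrays. Of 5 fibroblast markers, 2 were above it on all arrays and 3 on none. Of 4 measured leukocyte markers, 3 were above it on all arrays and 1 on none. Of 5 endothelial markers, 2 were above it on all arrays and 0 on none, so passing the filter does not by itself mark a cell type. Median intensity ran from 74.91 to 84.6 over the arrays.

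The snoRNA genes moved together from array to array within a group. On BB2-125 replicate 1, 82 of the 84 lay above their group mean, with a median deviation of 0.48 on the log2 scale. BB2-162 replicate 2 had 82 above and a median deviation of 0.44, while BB2-162 replicate 1 had 9 above and a median deviation of -0.50. That last array also lay farthest from its group over all genes (root mean square 0.221). On the same 3 arrays the median deviation of all genes was close to 0, between -0.0178 and -0.000456. The shift was smaller in the hypoxic vehicle group, where replicate 2 had a median deviation of -0.20, and in the normoxic vehicle group, where replicate 3 had -0.13. Counts over the class are therefore given with and without the shift: in a fit added after seeing it, each array's snoRNA genes were centred on their shared deviation, which by construction removes any change common to all of them.

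**Figure D1:**
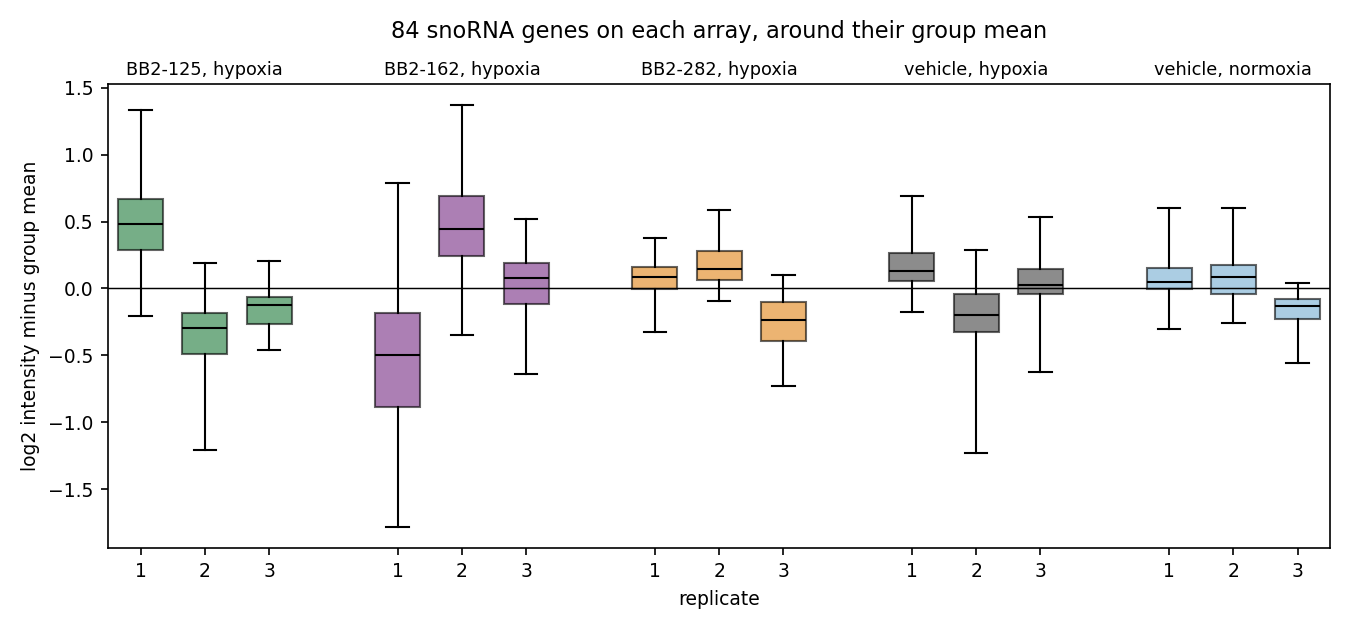
Log2 intensity of the 84 tested C/D box snoRNA genes on each of the 15 arrays, minus the gene's mean in its own group. Boxes span the quartiles with the median as a line, and whiskers reach the lowest and highest gene. BB2-125 replicate 1 and BB2-162 replicate 2 lie mostly above 0, and BB2-162 replicate 1 mostly below it, with median deviations of 0.48, 0.44 and -0.50.

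Nearly the whole class was higher in hypoxia. In hypoxic against normoxic vehicle cells, 79 of the 84 snoRNA genes rose and 0 fell by limma at an adjusted p under 0.05, which is 94% of them against 28.2% of all genes called higher and 29.4% called lower (57.5% in either direction). The median change was 1.13 on the log2 scale, against 0.09 over all 16005 genes. In 80 of the 84 the hypoxic and normoxic arrays did not overlap, and the share of all genes without overlap was not counted. Both counts include SNORD116-12, SNORD113-4 and SNORD13P2, which passed the filter through hypoxic arrays alone. Median log2 signal of the class on an array lay between 8.59 and 8.99 in hypoxic vehicle cells and between 7.36 and 7.64 in normoxic vehicle cells, so that the 2 sets of arrays stood apart for the class as a whole.

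The largest rise was that of SNORD61, which lies in RBMX, the gene of an RNA-binding splicing regulator. It had log2 intensities of 9.52, 8.05 and 9.52 in hypoxic vehicle cells, against 6.46, 6.61 and 5.70 in normoxic vehicle cells. All hypoxic arrays were above all normoxic ones, although hypoxic replicate 2 was well below its 2 neighbours, and the change was 2.77 ± 0.64 (SE, n = 3 each; limma adjusted p 0.00117). SNORD55 had 9.22, 8.92 and 9.44 in hypoxic vehicle cells, against 7.10, 7.17 and 6.98 in normoxic vehicle cells. Its arrays were tight in both groups, and it rose by 2.11 ± 0.24 (limma adjusted p 4.46e-07). SNORD54, in RPS20, had 10.38, 9.50 and 10.08 in hypoxic vehicle cells, against 7.75, 7.98 and 7.56 in normoxic vehicle cells, a rise of 2.22 ± 0.43. Each of these was higher on 3 of 3 hypoxic arrays. Further large rises were 2.33 ± 0.40 for SNORD114-3, 1.98 ± 0.27 for SNORD114-26, 1.96 ± 0.38 for SNORD50A in SNHG5, 1.94 ± 0.55 for SNORD38A and 1.91 ± 0.33 for SNORD42A in RPL23A.

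The change had little relation to signal over the whole range, although the brightest genes had a lower median. The 14 genes with a mean log2 signal above 12 all rose, with a median of 0.64, against a median of 1.19 for the other 70, of which 65 rose. Across the 84 genes the change and the mean signal had a Pearson r of -0.14 and a Spearman rho of -0.09; these genes share arrays and are not independent, so no test is given. Arrays compress differences near their upper limit, and the part of that in the smaller changes was not tested. SNORD13 (U13), which is transcribed from its own promoter and takes part in modifying the small ribosomal RNA, belongs to the bright set: its log2 intensity was 13.66, 13.66 and 13.64 in hypoxic vehicle cells, against 13.33, 13.25 and 13.29 in normoxic vehicle cells. The groups did not overlap, and the rise was 0.36 ± 0.11 (limma adjusted p 0.00692). SNORD13P3, a near copy of SNORD13 annotated on another chromosome, rose by 0.43 ± 0.10, and the 2 probe sets may share signal.

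Grouped by where the genes lie, the rise covered every class. All 20 snoRNA genes inside other protein-coding hosts rose, with a median of 1.39. Of 23 inside ribosomal protein genes or RACK1, 22 rose, with a median of 1.14. The 17 tested SNORD116 genes all rose, with a median of 1.13, as did the 3 of the SNORD113 and SNORD114 cluster, with a median of 1.98. These 2 clusters lie in imprinted regions on chromosomes 15 and 14, and the SNORD116 genes are near-identical copies whose probe sets may read each other's RNA. Within GAS5, 5 of 7 rose, and in the other noncoding hosts 8 of 10. The 5 genes that did not pass the test were SNORD75 (0.08 ± 0.16) and SNORD77 (0.43 ± 0.23) in GAS5, SNORD102 (0.48 ± 0.23) in RPL21, SNORD52 (0.55 ± 0.36) in SNHG32 and SNORD1A (-0.02 ± 0.22) in SNHG16. SNORD77, SNORD102 and SNORD1A had group means below the filter level in both groups, so their changes are not resolved. SNORD116-12, SNORD113-4 and SNORD13P2 were below the filter on every normoxic array and passed it through hypoxic arrays alone. Their rises are therefore not read as support.

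When the shared shift of each array was removed, 31 of the 84 were called in hypoxia, 14 higher and 17 lower than the class as a whole. SNORD61 (1.64), SNORD114-3 (1.19), SNORD54 (1.09) and SNORD55 (0.97) stayed above it. SNORD75 (-1.06), SNORD33 (-0.83), SNORD13 (-0.78) and SNORD57 (-0.77) lay below it. SNORD57 lies in NOP56, whose protein is part of the C/D box particle.

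**Figure D2:**
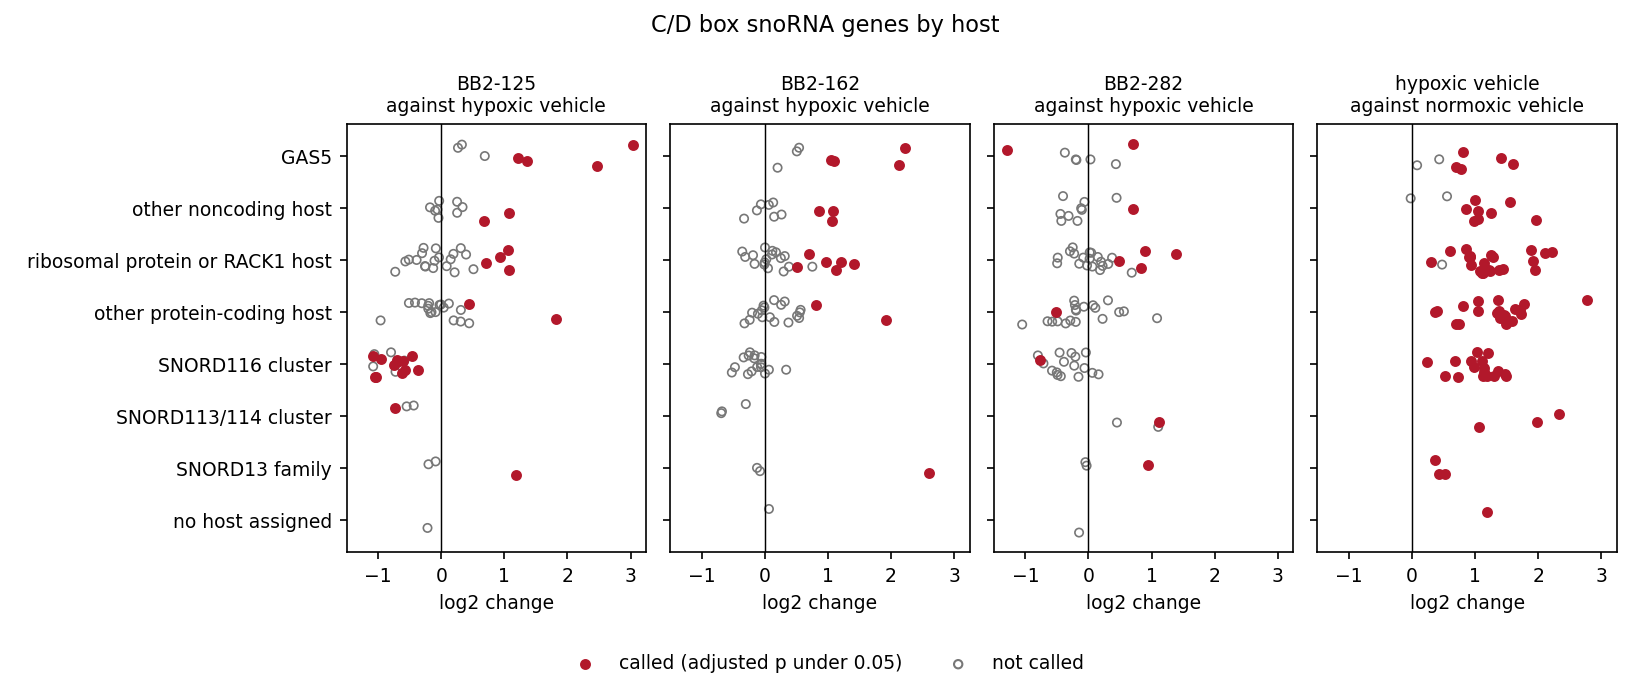
Log2 change of each tested snoRNA gene in 4 comparisons (horizontal axis), by the kind of gene it lies in (rows). Filled points passed limma's test at an adjusted p under 0.05 and open points did not. Nearly all points are filled and right of 0 in hypoxia, whereas with BB2-125 the filled points right of 0 lie in GAS5 and several other hosts and those left of 0 are SNORD116 genes and SNORD114-26.

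Other short noncoding RNAs on the array were counted in hypoxic against normoxic vehicle cells, where 28.2% of all genes were called higher. Of the H/ACA snoRNAs, which guide pseudouridylation, 32 of 54 rose and 0 fell, with a median of 0.68. Small Cajal body RNAs rose in 13 of 16 cases (median 1.37), spliceosomal RNAs in 5 of 14 (0.39), microRNA precursors in 44 of 88 (0.29), and vault and Y RNAs in 1 of 3 (0.66). No member of these 4 classes fell. The counts of spliceosomal, vault and Y RNAs are near the share of all genes, and differences between the classes were not tested.

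Host genes were compared with their snoRNAs where a probe set measured the host alone, which gave 29 pairs over 20 hosts. GAS5, SNHG1, SNHG5, SNHG16 and RPL13A had no such probe set and their spliced RNA was not analysed here. In hypoxic against normoxic vehicle cells 8 of the 20 hosts rose, 8 fell and 4 did not pass the test, with a median of 0.20. Over all genes 28.2% were called higher and 29.4% lower, and the hosts were not tested against these shares. All 29 snoRNA genes rose, 12 with a host that rose, 10 with a host that fell and 7 with a host that was not called. On 22 of the 29 pairs the difference between snoRNA and host was higher on every hypoxic array than on every normoxic array, with a median of 0.95 over the pairs. No such count was made for other pairs of genes. Across pairs, the host change and the snoRNA change had a Pearson r of -0.21 and a Spearman rho of -0.24, given without a test since pairs share hosts and arrays.

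Several hosts that fell are described with their snoRNAs, chosen after their values were seen. SNORD94, which guides a modification of U6 RNA, rose by 1.45 ± 0.37 on the log2 scale, while PTCD3, the gene of a mitochondrial ribosome protein in which it lies, changed by -1.33 ± 0.12. SNORD8 changed by 1.78 ± 0.40, and its host CHD8, a chromatin remodeller, by -1.15 ± 0.13. SNORD59A and SNORD59B changed by 1.73 ± 0.27 and 1.71 ± 0.28, and their host ATP5F1B, a subunit of ATP synthase, by -0.91 ± 0.11. SnoRNA and host thus moved in opposite directions in these pairs. SNORD14C and SNORD14E, which belong to the U14 family needed for processing of small-subunit ribosomal RNA, rose by 1.63 ± 0.16 and 1.05 ± 0.21, against -0.39 ± 0.13 for their host HSPA8, a chaperone.

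Other hosts rose with their snoRNAs. SNORD58A rose by 1.89 ± 0.21 and RPL17, in which it lies, by 1.99 ± 0.18, a difference of -0.10 ± 0.19. SNORD36B rose by 0.91 ± 0.16 and RPL7A by 0.99 ± 0.12. SNORD12C rose by 0.85 ± 0.22, less than its noncoding host ZFAS1 at 1.99 ± 0.13, and theirs was 1 of only 2 pairs, with SNORD45A and RABGGTB, in which the difference was lower on every hypoxic array. RPS20 rose by 0.33 ± 0.09. RPL23A was called at 0.24 ± 0.08, but not under quantile normalization (0.09, limma adjusted p 0.328), median centring or a fit of the 2 groups alone, nor without normoxic vehicle replicate 3 or hypoxic vehicle replicate 2.

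**Figure D3:**
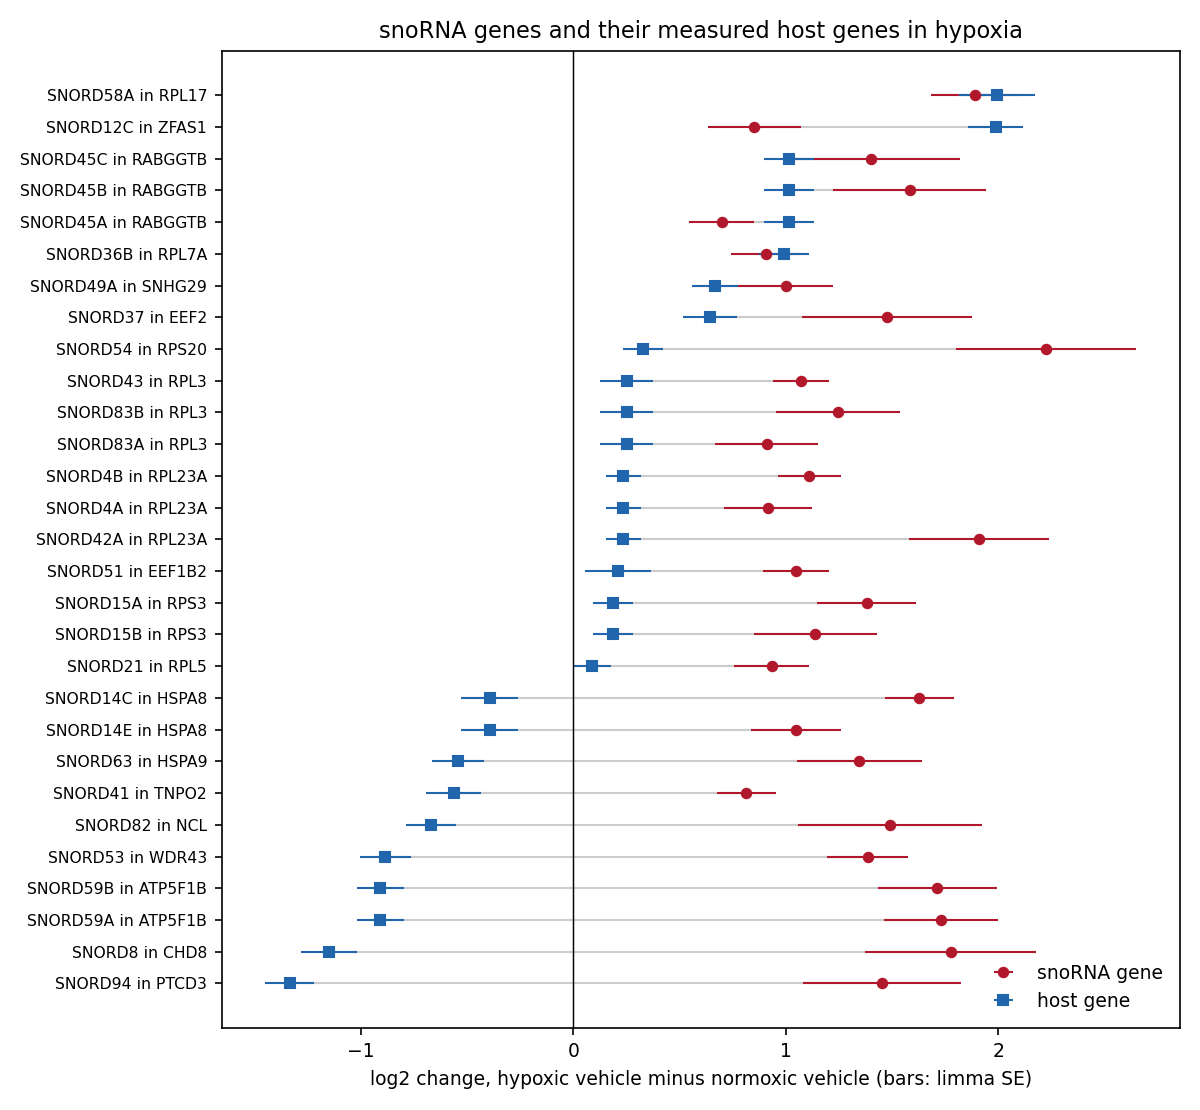
Log2 change in hypoxic minus normoxic vehicle cells for 29 snoRNA genes (circles) and the host genes they lie in (squares), sorted by host change; bars are limma's standard errors. All circles lie right of 0, while the squares run from -1.33 for PTCD3 to 1.99 for RPL17.

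Genes that make and process the particles were counted in hypoxic against normoxic vehicle cells, where 28.2% of all genes were called higher and 29.4% lower. Of 15 assembly and transport genes 12 fell and 2 rose (median -0.68), among them RUVBL1 (-2.56 ± 0.13) and HSP90AA1 (-2.42 ± 0.12), parts of the chaperone machinery that loads the proteins, ZNHIT6 (-1.82 ± 0.21) and the cap methyltransferase TGS1 (-1.04 ± 0.11). Of the core proteins measured, NOP58 fell by 0.74 and FBL, fibrillarin itself, rose by 0.37. Of the 19 genes for debranching, exosome and decay 10 fell and 0 rose, including EXOSC2 (-1.86 ± 0.13), the lariat debranching enzyme DBR1 (-1.24 ± 0.11) and AQR (-1.40 ± 0.13), which links snoRNA assembly to the spliceosome. Of the 11 U3 partners 7 fell and 2 rose, with UTP20 at -2.22 ± 0.11. The 5 measured genes on the list of noncoding hosts all rose, EPB41L4A-AS1 by 3.26 ± 0.12 and TAF1D, which also encodes a polymerase I factor, by 2.27 ± 0.11. Only ZFAS1 and SNHG29 among these 5 hold snoRNA genes tested here. Of the 17 RNA polymerase genes 10 fell and 3 rose, POLR1A at -2.27 ± 0.12 and POLR1D at 1.28 ± 0.09. Of the 11 genes of nonsense-mediated decay 3 rose, with SMG1 at 0.78 ± 0.21, and 3 fell, with EIF4A3 at -0.57 ± 0.11, both near the share of all genes.

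Under each compound a minority of the snoRNA genes differed from hypoxic vehicle. With BB2-125, 13 of the 84 rose and 13 fell against hypoxic vehicle, where 28.4% of all genes were called (13.3% higher and 15% lower). With BB2-162, 16 rose and 0 fell, where 36.1% of all genes were called (15.7% higher and 20.4% lower). With BB2-282, 8 rose and 3 fell, where 13.6% of all genes were called (5.65% higher and 7.94% lower). Over both directions these counts are near or below the share of all genes called, and nothing about the class is read from them. The class medians were -0.10, 0.06 and -0.11, against 0.02, 0.06 and 0.02 over all genes. The 3 comparisons share the same vehicle arrays, so the values of each are set side by side below. SNORD102 and SNORD1A, among the genes that rose with BB2-125 and with BB2-162, are the least certain: both lay below the filter level in vehicle, and SNORD1A did so with BB2-125 as well. Both passed the filter only through arrays with compound, as did SNORD77, also among these rises.

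For BB2-125 against hypoxic vehicle, deviations of same-numbered arrays were correlated (0.328, 0.286 and 0.189), though the titles do not say that arrays are paired. With the replicate as a block in a fit of those 2 groups 47 genes were called, 20 higher and 27 lower. That block was chosen from these same data, so its count is given only as an alternative. With the array shift removed, 37 were called, 19 higher and 18 lower. Without BB2-125 replicate 3 the count was 17. For BB2-162, 27 were called without BB2-162 replicate 1, all higher, and with the array shift removed 30 were called, 15 higher and 15 lower. For BB2-282, 22 were called with the shift removed, 14 higher and 8 lower, and 5 without BB2-282 replicate 1, while leaving out hypoxic vehicle replicate 2 gave 6 and BB2-282 replicate 2 gave 7. The shares of all genes called in these other fits were not counted, so nothing about the class is read from these counts either.

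The 7 measured snoRNA genes of GAS5 included the 2 largest fitted rises with BB2-125, SNORD77 from vehicle values below the filter level. GAS5 (growth arrest-specific 5) on chromosome 1 makes a spliced noncoding RNA known to be short-lived in growing cells because it is translated and degraded by nonsense-mediated decay. RefSeq places 10 snoRNA genes within its span, in the order SNORD74, 75, 76, 77, 44, 78, 79, 80, 47 and 81 from its start, and the array measured 7 of them alone. SNORD75 had log2 intensities of 10.29, 9.85 and 9.99 with BB2-125, 9.93, 9.86 and 9.57 with BB2-162 and 6.32, 6.42 and 6.11 with BB2-282, against 7.81, 7.38 and 7.52 in hypoxic vehicle cells. It had 7.47, 7.84 and 7.15 in normoxic vehicle cells. The 6 arrays with BB2-125 or BB2-162 were above every vehicle array, the 3 with BB2-282 below every vehicle array, and hypoxic and normoxic vehicle cells overlapped.

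SNORD75 rose by 2.47 ± 0.16 with BB2-125 (limma adjusted p 4.04e-09), rose by 2.22 ± 0.16 with BB2-162 (adjusted p 2.17e-08) and fell by 1.28 with BB2-282 (SE 0.16, adjusted p 4.42e-05), each against hypoxic vehicle with 3 arrays a group. All 3 calls held whichever single array was left out, with adjusted p of at most 0.000605. SNORD77 had 7.11, 6.93 and 6.97 with BB2-125, 6.86, 5.97 and 5.46 with BB2-162 and 3.77, 3.89 and 3.67 with BB2-282, against 4.23, 3.85 and 3.83 in hypoxic vehicle cells. It was above the filter level only with BB2-125 and BB2-162, so its rise is a bound: at least 2.30 with BB2-125 and at least 1.39 with BB2-162 on the log2 scale, with fitted changes of 3.03 ± 0.23 and 2.13 ± 0.23 (limma adjusted p 1.9e-08 and 1.53e-06). SNORD77 passed the filter through those 6 arrays alone, so these p-values are not read as support for the rise. In normoxic vehicle cells it had 3.70, 3.62 and 3.29, also below the filter level.

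SNORD78 and SNORD79, which follow SNORD44 along the gene, rose by less. SNORD78 had 8.86, 8.66 and 9.07 with BB2-125 and 8.90, 8.73 and 8.03 with BB2-162, against 7.89, 6.98 and 7.65 in hypoxic vehicle cells, rises of 1.36 ± 0.25 and 1.05 ± 0.25. SNORD79 had 9.90, 9.33 and 9.25 with BB2-125 and 9.48, 9.53 and 9.12 with BB2-162, against 8.35, 8.30 and 8.18 in hypoxic vehicle cells, rises of 1.22 ± 0.19 and 1.10 ± 0.19. Treated and vehicle arrays did not overlap in either gene. SNORD44, SNORD74 and SNORD81 did not pass the test with BB2-125 (0.69 ± 0.29, 0.33 ± 0.14 and 0.27 ± 0.31) or with BB2-162 (0.54 ± 0.29, 0.20 ± 0.14 and 0.51 ± 0.31). For SNORD44 and SNORD74 with BB2-125 this depended on the fit: with the replicate as a block in the 2 groups alone their adjusted p were 0.000321 and 0.0161, and with the array shift removed they were 0.00156 and 0.0166 (changes of 0.80 and 0.43). With BB2-162 it depended on 1 array: without BB2-162 replicate 1, SNORD81 (0.95, limma adjusted p 0.00867) and SNORD74 (0.37, 0.0269) were called. SNORD44 was not called with BB2-162 in any of the 6 fits that left out 1 array.

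BB2-282 left a different pattern across the same gene. SNORD74, the brightest of the 7, had 12.18, 12.26 and 12.02 with BB2-282, against 11.55, 11.28 and 11.51 in hypoxic vehicle cells. It rose by 0.71 ± 0.14 (limma adjusted p 0.00231), while its neighbour SNORD75 fell. The other 5 did not pass the test with BB2-282, with changes between -0.37 for SNORD78 and 0.44 for SNORD44. In hypoxic against normoxic vehicle cells SNORD44 (1.41 ± 0.29), SNORD81 (1.60 ± 0.31) and SNORD74 (0.80 ± 0.14) rose, as did SNORD78 (0.77 ± 0.25) and SNORD79 (0.70 ± 0.19), although SNORD78 lost its call without normoxic vehicle replicate 3 (adjusted p 0.0567) or hypoxic vehicle replicate 1 (0.0767).

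**Figure D4:**
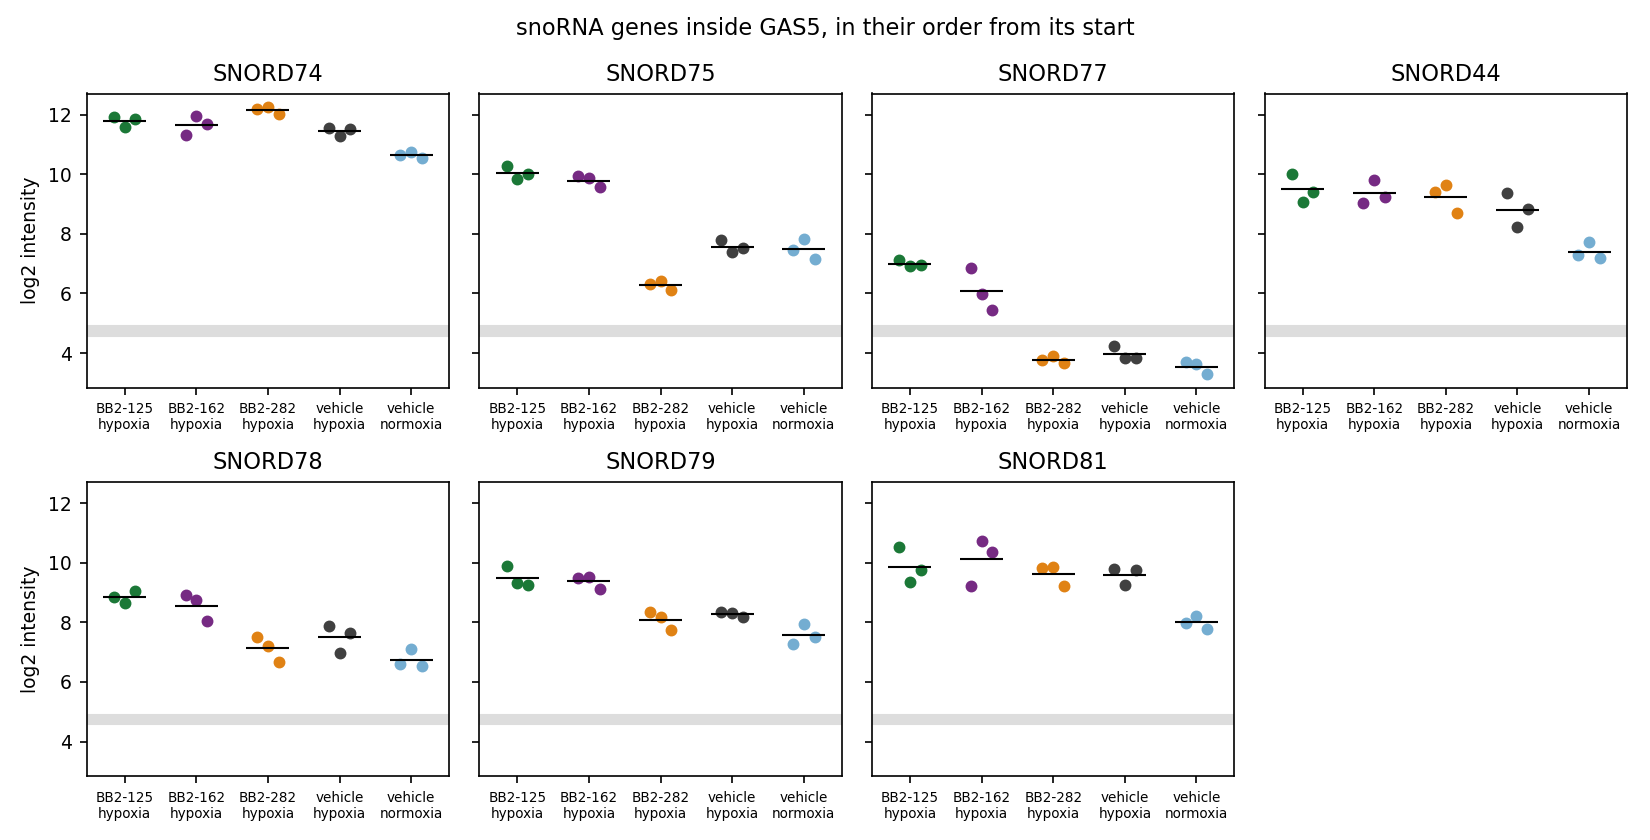
Log2 intensity on each array of the 7 snoRNA genes of GAS5 that the array measured alone, in their order along the gene, with the 5 groups side by side and group means as lines; the grey band spans the arrays' filter levels. SNORD75 and SNORD77 sit far above the other groups with BB2-125 and BB2-162, and SNORD75 is lowest with BB2-282.

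Other hosts carried called and uncalled snoRNA genes side by side, and the differences between those genes were not tested. SNORD14E in HSPA8 had 9.93, 9.73 and 9.39 with BB2-125 and 9.66, 9.88 and 9.81 with BB2-162, against 8.39, 7.46 and 7.75 in hypoxic vehicle cells. It rose by 1.82 ± 0.21 and 1.92 ± 0.21 (limma adjusted p 3.44e-06 and 2.1e-06) with no overlap of arrays. SNORD14C in the same host did not pass the test (0.31 ± 0.16 and 0.37 ± 0.16), and HSPA8 itself changed by -0.04 ± 0.13 with BB2-125 and fell by 0.55 with BB2-162. The BB2-125 arrays of SNORD14C were nevertheless all above its vehicle arrays.

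In SNHG5, SNORD50B had 8.39, 7.77 and 8.06 with BB2-125 and 8.17, 8.38 and 7.67 with BB2-162, against 7.16, 7.12 and 6.71 in hypoxic vehicle cells. It rose by 1.08 ± 0.19 with each compound, while SNORD50A changed by -0.03 ± 0.38 and 0.06 ± 0.38. In RPL23A, SNORD4A rose by 1.08 ± 0.21 and 1.13 ± 0.21 and SNORD4B by 0.93 ± 0.15 and 1.42 ± 0.15 with BB2-125 and BB2-162. SNORD42A in the same host (0.51 ± 0.33 and 0.75 ± 0.33) did not pass the test, and RPL23A itself changed by 0.05 ± 0.08 and 0.07 ± 0.08. SNORD58A rose by 1.06 ± 0.21 and 1.20 ± 0.21, against 0.29 ± 0.18 and 0.20 ± 0.18 for RPL17, neither called.

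With BB2-282 the snoRNA genes measured in RPL3, which encodes a large-subunit ribosomal protein, were higher than in hypoxic vehicle. SNORD83B had 10.40, 10.78 and 9.61 with BB2-282, against 8.99, 8.60 and 9.05 in hypoxic vehicle cells, all 3 treated arrays being higher. It rose by 1.39 ± 0.29 (limma adjusted p 0.00358), and SNORD83A rose by 0.90 ± 0.24 and SNORD43 by 0.48 ± 0.13, while RPL3 changed by 0.01 ± 0.12. The calls of SNORD83A and SNORD43 were each lost when any of 3 single arrays was left out, hypoxic vehicle replicate 2 and BB2-282 replicates 1 and 2. SNORD4A rose by 0.84 ± 0.21 with BB2-282, a call lost without any of the same 3 arrays, and SNORD4B changed by 0.02 ± 0.15. SNORD45A, in RABGGTB, fell by 0.52, a call kept in 2 of 6 fits that left out 1 array, and its host was at -0.37 ± 0.12, a call lost in all 6 of those fits. SNORD1A (0.71 ± 0.22) rested on vehicle values below the filter level and kept its call in 1 of 6 such fits. SNORD94 (1.09 ± 0.37, adjusted p 0.0603) and SNORD114-3 (1.11 ± 0.40, 0.0783) did not pass limma's test, although their treated arrays were all above the vehicle arrays.

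The SNORD116 cluster was lower on average with BB2-125, chiefly on replicates 2 and 3. These copies, missing or silent in Prader-Willi syndrome, lie in one long noncoding transcript that is known to be expressed from the paternal chromosome. Of 17 tested, 12 fell with BB2-125 against hypoxic vehicle, where 15% of all genes were called lower, 0 rose, and all 17 had a negative change, with a median of -0.72. The copies are near-identical and their probe sets may read each other's RNA, so the 17 are not independent. Their median log2 intensity on an array was 9.25, 7.93 and 7.95 with BB2-125, against 9.55, 9.21 and 9.44 in hypoxic vehicle cells and 8.35, 8.19 and 8.29 in normoxic vehicle cells. BB2-125 replicate 1 was near the vehicle arrays, while replicates 2 and 3 were clearly below them, and these 2 arrays were also the lower ones for the whole class.

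SNORD116-21 showed the largest fall, with 8.45, 7.38 and 7.64 with BB2-125 against 8.85, 9.06 and 8.82 in hypoxic vehicle cells. Every treated array was below every vehicle array, and the change was -1.09 ± 0.22 (limma adjusted p 0.000747), a call kept whichever single array was left out. SNORD116-24 (-0.74 ± 0.19) also kept its call throughout. SNORD116-11 (-1.05 ± 0.31), SNORD116-29 (-1.03 ± 0.33), SNORD116-13 (-0.96 ± 0.29), SNORD116-6 (-0.71 ± 0.23) and SNORD116-27 (-0.70 ± 0.23) lost theirs without BB2-125 replicate 2, with adjusted p between 0.0985 and 0.176, and again without BB2-125 replicate 3 or hypoxic vehicle replicate 1. With the shift of each array removed, 15 of the 17 were called lower with BB2-125 than in hypoxic vehicle, relative to the class as a whole. With BB2-162 none of the 17 was called, with a median of -0.16, and with BB2-282 SNORD116-21 alone fell (-0.77 ± 0.22, kept in 2 of 6 fits that left out 1 array), with a median of -0.39 and 15 of 17 negative. With the shift removed, 8 and 5 of them were lower with BB2-162 and BB2-282, again relative to the class.

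The 3 tested genes of the SNORD113 and SNORD114 cluster, which lie in another imprinted region, differed between compounds. SNORD114-26 had 6.82, 5.59 and 5.98 with BB2-125, 5.50, 6.57 and 6.45 with BB2-162 and 7.97, 8.28 and 7.70 with BB2-282, against 6.77, 6.83 and 6.98 in hypoxic vehicle cells. It rose by 1.12 ± 0.27 with BB2-282, fell by 0.73 with BB2-125 and changed by -0.69 ± 0.27 with BB2-162 (limma adjusted p 0.00857, 0.0471 and 0.0505). The BB2-282 arrays were above all others, whereas the BB2-125 arrays overlapped those of hypoxic vehicle, and the fall with BB2-125 lost its call in 5 of 6 fits that left out 1 array. Without BB2-282 replicate 2 the rise had an adjusted p of 0.0539.

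SNORD13P2, annotated as a copy of SNORD13 on chromosome 7, rose with every compound. It had 6.74, 6.13 and 5.89 with BB2-125, 7.34, 7.81 and 7.84 with BB2-162 and 5.69, 6.29 and 6.08 with BB2-282, against 5.01, 5.04 and 5.16 in hypoxic vehicle cells. No treated array overlapped the vehicle arrays, and the changes were 1.18 ± 0.18, 2.59 ± 0.18 and 0.95 ± 0.18 (limma adjusted p 7.52e-05, 1.37e-08 and 0.00192). SNORD13 itself did not pass the test with any of the 3 (-0.20, -0.12 and -0.05, each ± 0.11). The annotated copy is longer than SNORD13, at 205 against 104 bases, and lies within the span of FOXK1, whose strand was not given, so no host was assigned.

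**Figure D5:**
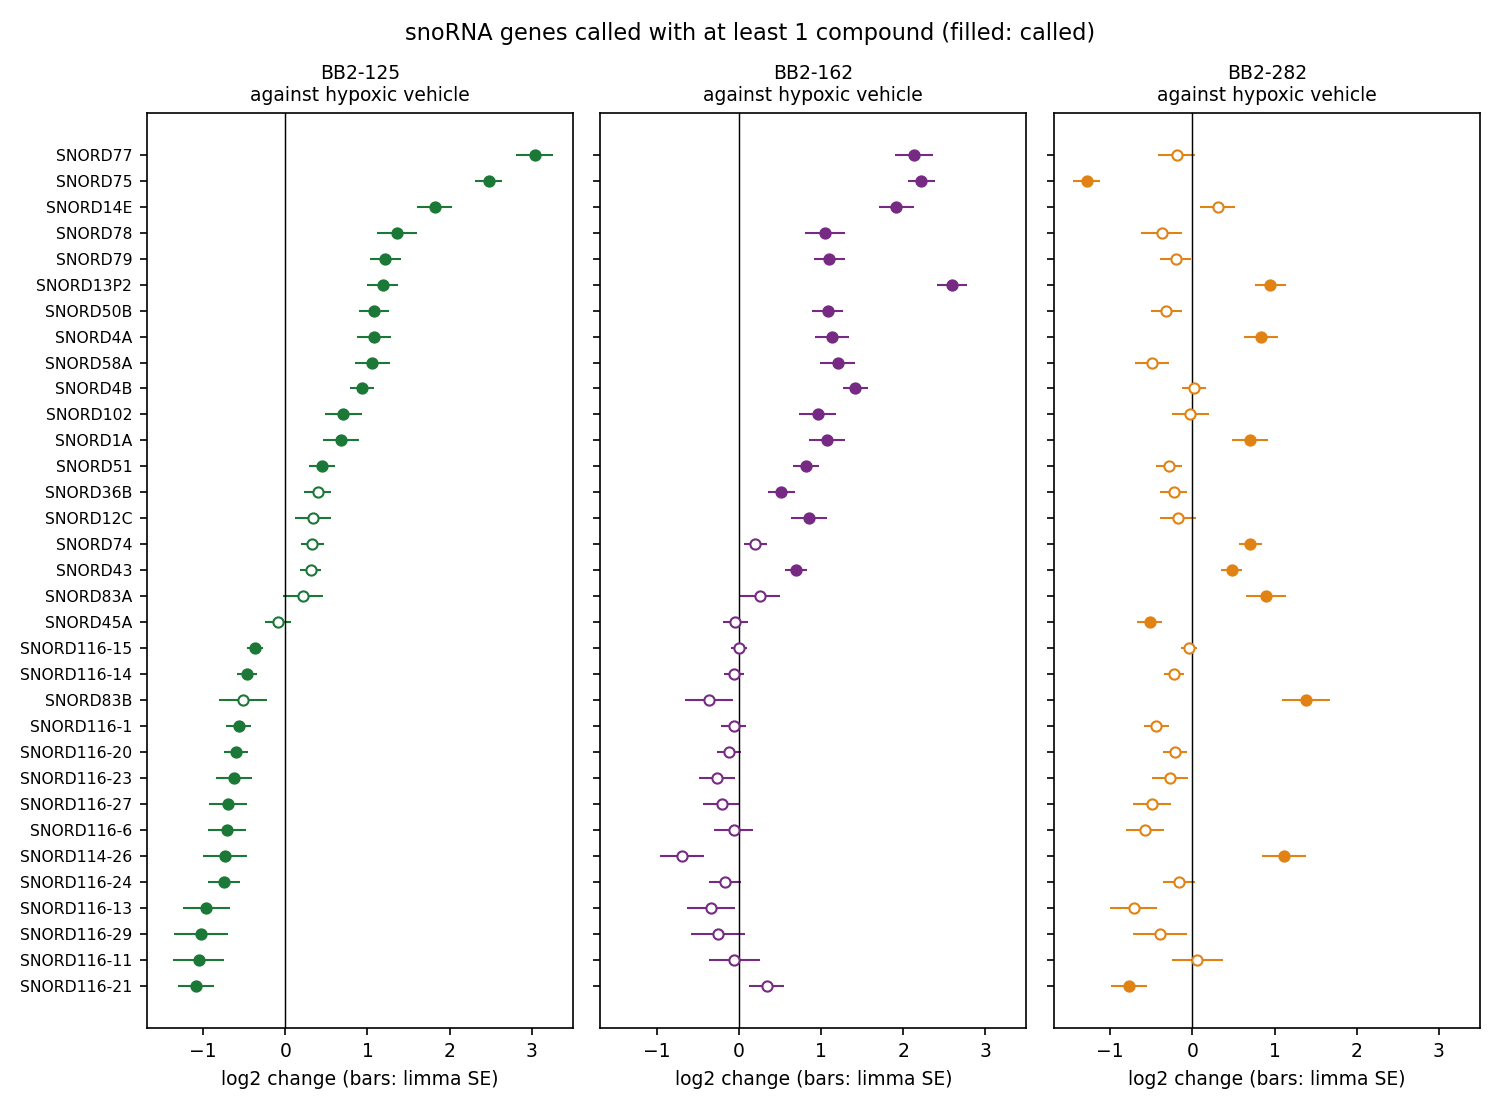
Log2 change ± SE against hypoxic vehicle of the 33 snoRNA genes called with at least 1 of the 3 compounds (3 arrays a group), sorted by the change with BB2-125; filled points were called. SNORD77 (3.03), SNORD75 (2.47) and SNORD14E (1.82) lead with BB2-125, SNORD13P2 (2.59) leads with BB2-162 and SNORD83B (1.39) with BB2-282, and the SNORD116 genes lie left of 0 with BB2-125. The fitted change of SNORD77 starts from vehicle values below the filter level, so its place ahead of SNORD75 is not resolved.

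The compounds were compared directly at their common dose and time, in 3 pairs over the 84 genes with p-values adjusted over all 16005 genes. Between BB2-125 and BB2-162, 1 gene was higher and 12 were lower with BB2-125, where 26.1% of all genes were called (16.7% higher and 9.43% lower). SNORD77 was higher with BB2-125 by 0.90 ± 0.23 (adjusted p 0.00726, and 0.0539 without BB2-162 replicate 3). SNORD116-21 (-1.43 ± 0.22), SNORD13P2 (-1.41 ± 0.18) and SNORD117 in DDX39B (-0.82 ± 0.22, kept in 4 of 6 fits that left out 1 array) were lower, and 8 of the 12 were SNORD116 genes. This count rested on single arrays: it was 35 without BB2-162 replicate 1, 22 without BB2-125 replicate 1, and 4 or 5 without any one of the other 4. SNORD75 was not separated between these compounds, with a difference of 0.26 and a 95% interval from -0.09 to 0.60, although with the array shift removed it was called, at 0.57 (limma adjusted p 0.0404). With the shift removed, 10 genes were called in this pair, 4 higher and 6 lower with BB2-125.

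Between BB2-125 and BB2-282, 16 genes were higher and 14 lower with BB2-125, where 36.3% of all genes were called (18.7% higher and 17.6% lower). SNORD75 differed by 3.76 ± 0.16 (limma adjusted p 3.8e-11), SNORD77 by 3.22 ± 0.23, of which at least 2.28 is above the filter level, SNORD78 by 1.73 ± 0.25 and SNORD58A by 1.55 ± 0.21. On the other side stood SNORD83B (-1.90 ± 0.29), SNORD114-26 (-1.85 ± 0.27), SNORD114-3 (-1.65 ± 0.40) and SNORD94 (-1.50 ± 0.37). With the shift removed, 39 were called, 18 higher and 21 lower. Arrays of the 2 compounds did not overlap for any of these 8 genes, and each kept its call whichever single array was left out. SNORD77, however, lay below the filter level on every BB2-282 array and passed the filter only through arrays with other compounds, BB2-125 among them. For SNORD77 the lack of overlap and the kept calls are therefore not read as support.

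Between BB2-162 and BB2-282, 20 genes were higher and 7 were lower with BB2-162, where 35.8% of all genes were called (15.6% higher and 20.3% lower). SNORD75 differed by 3.50 ± 0.16 (limma adjusted p 1.04e-10), SNORD77 by at least 1.38 (fitted 2.32 ± 0.23), SNORD58A by 1.69 ± 0.21 and SNORD13P2 by 1.64 ± 0.18. SNORD114-26 (-1.81 ± 0.27), SNORD114-3 (-1.78 ± 0.40), SNORD83B (-1.74 ± 0.29) and SNORD94 (-1.33 ± 0.37) were lower with BB2-162. Leaving out BB2-162 replicate 1 brought the count to 44, and with the shift removed 37 were called, 17 higher and 20 lower. These pairs share the BB2-282 arrays, so the lists are not independent.

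Set against normoxic vehicle, hypoxic cells with compound kept most of the class above the normoxic level. With BB2-125, 62 rose and 0 fell (31.5% of all genes were called higher and 30.5% lower), with BB2-162 81 rose and 0 fell (42.4% and 34.4%), and with BB2-282 67 rose and 1 fell (33.4% and 31.4%). With the shift removed the splits were 29 higher and 27 lower, 26 and 30, and 27 and 26. The 1 gene that fell was SNORD75 with BB2-282, at -1.20 ± 0.16. Medians of the class were 1.09, 1.30 and 1.11, against 0.10, 0.14 and 0.11 for all genes. Of the 17 SNORD116 genes, 2 rose with BB2-125, 15 with BB2-162 and 9 with BB2-282, and 3 had a negative change with BB2-125. All 7 GAS5 genes rose with BB2-125 and with BB2-162, SNORD77 by at least 2.40 and 1.49 on the log2 scale.

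The same lists were counted with the compounds, where 13.3% of all genes were called higher and 15% lower with BB2-125, 15.7% and 20.4% with BB2-162, and 5.65% and 7.94% with BB2-282. Many counts are near these shares, and the lists were not tested against them or between comparisons. Against hypoxic vehicle, 6 of 15 assembly and transport genes rose and 1 fell with BB2-125, the rises including NOPCHAP1 (1.14 ± 0.14) and HSP90AA1 (1.08 ± 0.12). With BB2-162 2 rose and 2 fell, and with BB2-282 0 rose and 2 fell. NOP58, which binds the C/D box directly, was called at 0.46 ± 0.14 with BB2-125 and 0.41 ± 0.14 with BB2-162 and changed by -0.37 ± 0.14 with BB2-282 (limma adjusted p 0.0832). The first call was lost without BB2-125 replicate 2 or hypoxic vehicle replicate 3. The second was lost under median centring and in 4 of 6 fits that left out 1 array, with a change of 0.26 without BB2-162 replicate 1. Of 19 debranching, exosome and decay genes, 6 rose and 3 fell with BB2-125, 1 rose and 6 fell with BB2-162, and 0 rose and 6 fell with BB2-282. Among these, EXOSC8 rose by 0.84 ± 0.16 with BB2-125 and fell by 0.83 with BB2-282, and the exonuclease XRN1 fell by 0.86 with BB2-125 and 0.56 with BB2-162.

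Of 11 U3 partners, 3 rose and 1 fell with BB2-125 and again with BB2-162, with UTP15 at 0.98 ± 0.18 and 0.80 ± 0.18, while 0 rose and 1 fell with BB2-282. Of 11 genes of nonsense-mediated decay, 1 rose and 2 fell with BB2-125 and with BB2-162, and none was called with BB2-282. EIF4A3, a part of the exon junction complex, rose by 0.89 ± 0.11 and 1.08 ± 0.11 with BB2-125 and BB2-162, while the kinase SMG1 was called at -0.73 ± 0.21 and -0.64 ± 0.21, calls lost in 2 and 3 of 6 fits that left out 1 array. The list of noncoding hosts held 5 genes measured alone, among them TAF1D, which also encodes a protein. Only ZFAS1 and SNHG29 among them hold snoRNA genes tested here. Of the 5, 1 rose and 0 fell with BB2-125 and with BB2-162, SNHG17 at 0.45 ± 0.13 and 0.40 ± 0.13. These calls were lost in 2 and 3 of 6 fits that left out 1 array, with 0.24 for BB2-162 without its replicate 1. With BB2-282 0 rose and 5 fell, TAF1D by 0.81 and SNHG29 by 0.60. On their dimmest probe sets SNHG29 was at -0.19 (limma adjusted p 0.509) and SNHG17 took the opposite sign (0.51) with BB2-282. Of 17 RNA polymerase genes, 2 rose and 1 fell with BB2-125, 3 rose and 3 fell with BB2-162, and 1 rose and 4 fell with BB2-282. POLR1C rose by 0.86 ± 0.08 and RRN3 fell by 0.92 with BB2-125.

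Other classes of short RNA were counted in the same comparisons, beside the same shares of all genes (13.3% higher and 15% lower with BB2-125, 15.7% and 20.4% with BB2-162, 5.65% and 7.94% with BB2-282). With BB2-282 the C/D box genes had a median of -0.11 against hypoxic vehicle, while 19 of 54 H/ACA snoRNAs rose and 1 fell, with a median of 0.47. With BB2-125 4 H/ACA snoRNAs rose and 0 fell (median 0.11), and with BB2-162 11 rose and 0 fell (0.17). Of 88 microRNA precursors, 4 rose and 11 fell with BB2-125, 32 rose and 1 fell with BB2-162, and 2 rose and 2 fell with BB2-282.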

How the data were processed

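RNA from 15 cultures was measured on 15 arrays. The authors deposited linear intensities, 1 for each probe set, made with RMA per the submitters' processing notes; the sources used here name neither its version nor a build. The log2 was taken here, so changes are differences of log2 intensity. Of 28869 probe sets, 21062 were listed in the probe table, 19310 with 1 gene symbol, 1752 with several, and 7807 were unnamed; 19279 single-symbol probe sets matched an Entrez ID. Each gene was represented by its probe set of highest mean. Genes had to exceed the array's 25th percentile on at least 3 arrays, which removed 2372 of 18377 and left 16005.

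limma 3.58.1 in R 4.3.3 fitted all 15 arrays in 1 group-means model (10 residual and 7.96 prior degrees of freedom). Benjamini-Hochberg adjustment ran over all tested genes in each of 10 comparisons, with calls made below 0.05. Errors after ± are limma's standard errors, and intervals are 95%. Fits were tested on simulated data. Where a group mean lay below the mean filter level, the change was also counted from that level ("at least").

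The members and lists were chosen with earlier results of these data known. Genes named were the 8 largest called rises and falls in the comparisons of hypoxic with normoxic vehicle and of each compound with hypoxic vehicle, 4 each way in the other 6, all GAS5 members and SNORD13, their measured hosts, and up to 4 genes of lowest p per list; other names were chosen after their values were seen. Hosts came from a list written from general knowledge, kept only where the RefSeq span of the host (GRCh38.p14) held the snoRNA gene. Promoter windows are RefSeq's.

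Replicate numbers were checked as pairs through correlations of deviations from the group means. Only BB2-125 and hypoxic vehicle had all 3 over 0.1 (0.328, 0.286 and 0.189), so that pair is also given with the replicate as a block. No arrays were identical (0 pairs). Alternatives were another filter, probe set choice, centring, quantile normalization, an intensity trend, dim values set to the filter level, 2-group fits, the replicate block, the centring of snoRNA genes and leaving out each array. The shares of all genes called are those of the main fit and were not counted in the alternatives.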

Additional observations from a re-analysis of the deposited data

Results flagged for a closer look

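SNORD75 moved in opposite directions with compounds given at the same dose. It was higher with BB2-125 and lower with BB2-282, each against hypoxic vehicle, and the direct difference was 3.76 on the log2 scale (SE 0.16, n = 3 each; limma adjusted p 3.8e-11). BB2-162 against BB2-282 gave 3.50 (SE 0.16, limma adjusted p 1.04e-10). In both comparisons 3 of 3 arrays lay on the same side. SNORD114-26 went the other way: it was lower with BB2-125 and higher with BB2-282, with a direct difference of -1.85 (SE 0.27, limma adjusted p 1.98e-05) and no overlap of arrays, though its fall with BB2-125 depended on single arrays.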

How the results depend on the processing

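Removing the shift that snoRNA genes share on an array gave 31 calls in hypoxia against 79, and 30 with BB2-162 and 22 with BB2-282 against hypoxic vehicle. By its construction it turned the sign of SNORD74 (-0.33), SNORD75 (-1.06), SNORD78 (-0.37), SNORD79 (-0.44) and SNORD13 (-0.78) in hypoxia. Against normoxic vehicle it did so for SNORD13 (-0.87 with BB2-125, -1.11 with BB2-162, -0.72 with BB2-282), SNORD74 (-0.34 with BB2-162), and SNORD77 (-0.79) and SNORD79 (-0.53) with BB2-282. SNHG17 with BB2-282 was 0.51 on its dimmest probe set; the cause was not tested. With the replicate as a block in fits of 2 groups, 47 genes were called with BB2-125 and 20 with BB2-282 against hypoxic vehicle, and 3 between BB2-125 and BB2-162; the same 2 groups without the block gave 21 with BB2-282 and 5 between BB2-125 and BB2-162. In the fit of all 15 arrays the block left every count within 1.5 times, such as 24 with BB2-125. Leaving out 1 array gave 74 to 78 calls in hypoxia, 17 to 33 with BB2-125, 15 to 27 with BB2-162 and 5 to 11 with BB2-282 against hypoxic vehicle, 4 to 35 between BB2-125 and BB2-162, 21 to 32 between BB2-125 and BB2-282, and 23 to 44 between BB2-162 and BB2-282. Centring arrays on their median took the higher calls with BB2-162 to 28.2% from 43.4% of calls over all genes, and the snoRNA split to 15 higher and 1 lower. The percentage went to 74.4% from 63.9% for BB2-125 against BB2-162 and to 32.9% from 43.4% for BB2-162 against BB2-282. Of the repeats for named genes, 3984 kept direction and call, 184 lost the call, 44 gained one and 12 changed sign. The number of arrays and signal near the filter level limit the dimmest genes: among the 31 not tested, 7 were called higher in hypoxia without the filter and the highest mean log2 signal was 4.39.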
